A study of Mus musculus with 14 samples.

Results

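The genes described here are 10 components of cholinergic signalling: the muscarinic receptor genes Chrm1, Chrm2, Chrm3 and Chrm4, the nicotinic receptor subunit genes Chrna4, Chrna5, Chrna7 and Chrnb2, and Lypd1 and Lynx1, which encode Ly6 proteins that bind nicotinic receptors. They were found by symbol among the 24690 symbols that both deposited count tables list. The 10 genes were chosen from the measured differences between libraries labelled mutant and control libraries in these same tables, so for them those differences are a description: no p-value is given, and whether a gene passed the threshold of the fit over all genes is stated as part of that description and supports nothing. All 10 passed the filter on low counts in both experiments.

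The study asked how loss of the LIM-homeodomain transcription factor Lhx2 affects neurons of cortical layers II and III, with Lhx2 deleted either in progenitors or in postmitotic neurons. In the progenitor experiment, embryos carrying 2 floxed Lhx2 alleles (Lhx2lox/lox) were electroporated at E15.5 with a plasmid for EGFP (control, n = 4) or for Cre and EGFP (labelled mutant, n = 4). In the postmitotic experiment, EGFP was electroporated the same way into Lhx2lox/lox embryos (control, n = 3) or into NexCre/+; Lhx2lox/lox embryos (labelled mutant, n = 3), whose Cre comes from the Nex locus, active in young excitatory neurons of the cortex. All 14 libraries are from layer II/III tissue microdissected at postnatal day 5. All 4 groups thus carry floxed Lhx2 and received a plasmid. In each experiment only the libraries labelled mutant had Cre, and the postmitotic ones also carried the NexCre allele. Effects of Cre itself or of that allele cannot be told apart from effects of Lhx2 loss. Electroporation reaches only part of the cells of a layer, whereas NexCre acts in excitatory neurons throughout the cortex, so the 2 deletions differ in their extent as well as in their time. The labels do not say whether the libraries of a group come from separate animals, so every p-value measures the spread between these libraries. In bulk tissue of this kind, fewer cells of a type and less RNA per cell cannot be told apart.

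Acetylcholine reaches the cortex mainly from neurons of the basal forebrain. Its muscarinic receptors are coupled to G proteins: Chrm1 and Chrm3 act through Gq and phospholipase C, and Chrm2 and Chrm4 act through Gi/o, which lowers cyclic AMP and opens inwardly rectifying potassium channels. Nicotinic receptors are cation channels built of subunits around a pore. In the cortex most are built of the alpha4 and beta2 subunits (Chrna4, Chrnb2), with the alpha5 subunit (Chrna5) as an accessory, or of alpha7 alone (Chrna7). Lynx1 and Lypd1 (also known as Lynx2) are membrane-anchored proteins of the Ly6 family that resemble snake neurotoxins in fold and dampen nicotinic receptors, and Lynx1 is known as a brake on plasticity in the adult visual cortex.

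Promoter sequences are shown for the gene with the largest difference in both experiments (Lypd1), for a receptor lower in both (Chrm4) and for a subunit with little difference in either (Chrnb2). RefSeq's promoter table (GRCm38.p6) held 11 windows for 8 of the 10 genes; Chrm1 and Lynx1 had no entry. Each window is the 250 bases before an annotated start, read 5′ to 3′ on the gene's strand, and the 4 printed ones overlap no exon of GENCODE M21. Lypd1 has several starts, of which 2 are shown, at chr1:125912215-125912464 and chr1:125911388-125911637 (minus strand). Chrm4 is read from chr2:91921939-91922188 (plus strand) and Chrnb2 from chr3:89764633-89764882 (minus strand). Capitals mark GGGCGG on either strand, the core of a GC box.
Lypd1, first window: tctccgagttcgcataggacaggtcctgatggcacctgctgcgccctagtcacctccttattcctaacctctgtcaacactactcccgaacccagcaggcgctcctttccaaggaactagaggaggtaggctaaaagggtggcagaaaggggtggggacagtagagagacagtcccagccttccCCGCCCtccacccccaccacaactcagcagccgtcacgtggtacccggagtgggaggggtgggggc
Lypd1, second window: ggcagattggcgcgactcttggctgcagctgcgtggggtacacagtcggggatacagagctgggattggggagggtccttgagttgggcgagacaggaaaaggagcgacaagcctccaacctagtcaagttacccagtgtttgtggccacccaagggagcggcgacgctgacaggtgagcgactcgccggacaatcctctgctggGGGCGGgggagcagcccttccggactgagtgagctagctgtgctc
Chrm4: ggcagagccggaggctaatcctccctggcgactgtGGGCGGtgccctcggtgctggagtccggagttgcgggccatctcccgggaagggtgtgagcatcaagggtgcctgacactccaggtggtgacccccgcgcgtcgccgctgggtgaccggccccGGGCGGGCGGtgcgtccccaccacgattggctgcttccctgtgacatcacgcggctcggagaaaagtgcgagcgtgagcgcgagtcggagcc
Chrnb2: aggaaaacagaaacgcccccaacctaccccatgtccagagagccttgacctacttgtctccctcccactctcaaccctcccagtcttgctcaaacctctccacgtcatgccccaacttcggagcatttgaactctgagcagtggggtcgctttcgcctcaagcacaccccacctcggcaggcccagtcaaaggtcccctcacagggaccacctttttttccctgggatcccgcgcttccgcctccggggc
TAATTA, a core motif of homeodomain proteins that reads the same on both strands, was in 0 of the 11 windows, against 4.8% of the 32851 promoter windows of the table. GGGCGG was in 8 of the 11 windows, against 32.7% of all. Each Lypd1 window above has 1 such match, the Chrm4 window has 3 matches, of which 2 overlap, and the Chrnb2 window has 0. A match describes the sequence only.

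Depth was 22677019 to 29497595 counts per progenitor library and 21605777 to 25891416 per postmitotic library. The Lhx2 gene itself, a check of the labels, was not lower in the libraries labelled mutant. Its level was 127 ± 9.10 CPM (counts scaled to a common library total; SD, n = 4) in progenitor controls and 130 ± 11.4 CPM (n = 4) in the libraries labelled mutant, a difference with an exact two-sided permutation p of 0.743. Among postmitotic libraries it was 147 ± 3.48 CPM against 179 ± 7.41 CPM (n = 3 each), with an exact permutation p of 0.1, the smallest that 3 against 3 allow, and a log2 fold change of 0.29 ± 0.06 in edgeR (adjusted p = 0.0276). These are counts over the whole gene, and the sources used here do not name the floxed exons, so the total does not check the deletion, and directions below rest on the labels. Markers of excitatory neurons and of upper layers were detected in every library, as were those of astrocytes, oligodendrocyte lineage, endothelium, microglia and interneurons. The summed CPM of 4 Y-linked genes (Ddx3y, Eif2s3y, Kdm5d and Uty) was at most 0.0382 in the 4 progenitor controls and 0 in progenitor mutant 1, but between 99.4 and 170 in progenitor mutants 2, 3 and 4. Among postmitotic libraries it was high in controls 1 and 2 and in mutant 3 (134 to 166) and at most 0.0463 in the other 3 libraries. High Y-linked counts mark tissue of males, so libraries with and without them are not from the same animal. In the progenitor experiment sex thus went largely with the label.

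In the progenitor experiment, 7 of the 10 genes were lower in the libraries labelled mutant and past the threshold of an adjusted p under 0.05 (edgeR quasi-likelihood test, Benjamini-Hochberg over 15295 genes), and 0 were higher. Of all genes tested, 11.4% passed as lower and 12% as higher. The same 7 genes had groups that did not overlap. The share of all tested genes with groups apart was not computed, so this count has no background. In the postmitotic experiment 3 of the 10 passed as lower and 0 as higher, where 1.06% of 17775 genes passed as lower and 0.895% as higher. The 3 were Chrm1, Chrm4 and Lypd1, all among the 7. Since these contrasts chose the genes, nothing is read from the counts. The median log2 fold change of the 10 was −0.60 and −0.37 in the 2 experiments, against 0.004 and −0.002 over all genes tested.

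**Figure D1:**
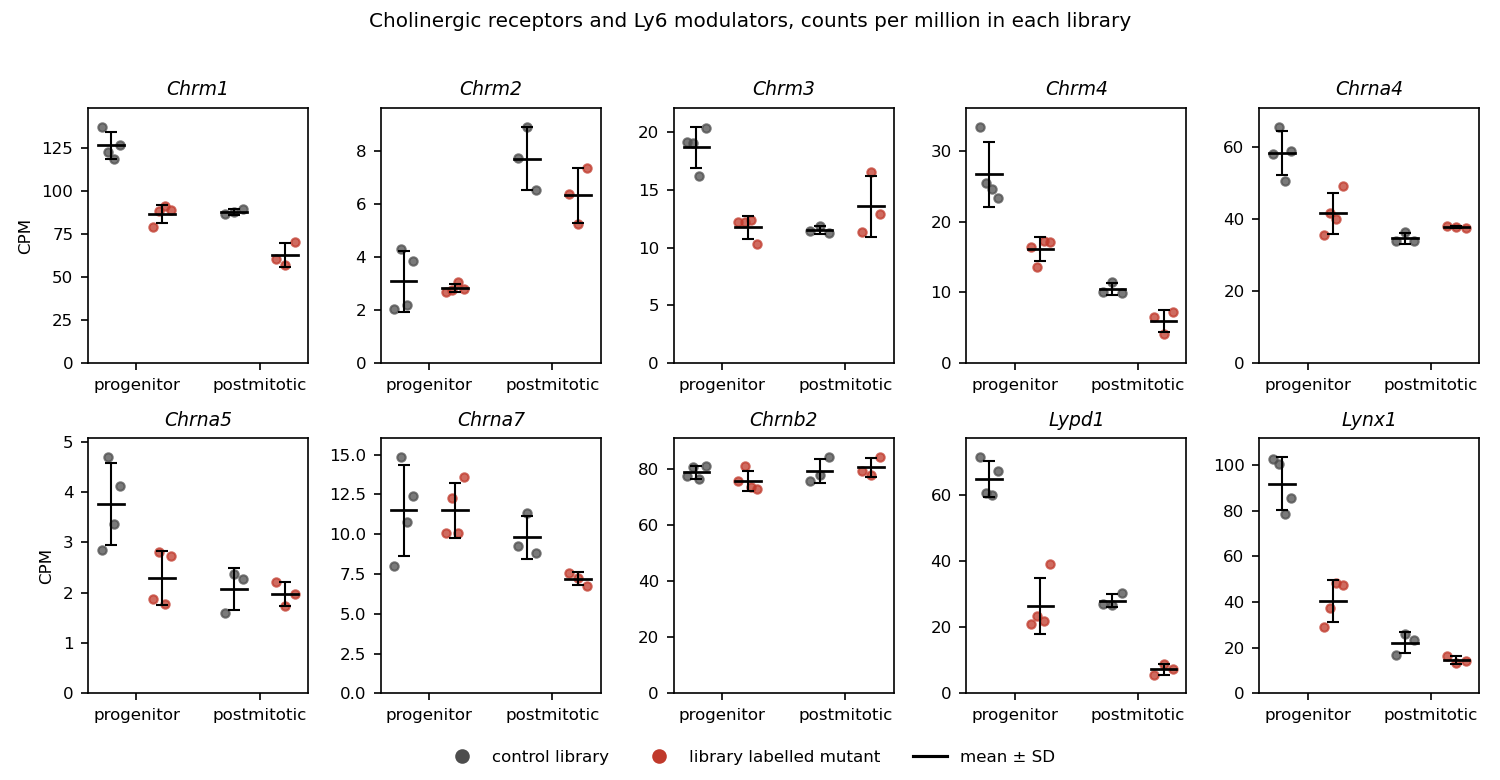
CPM of the 10 genes in each library (points), with the mean and SD of each group (bars), controls in grey and libraries labelled mutant in red. Lypd1 was separated in both experiments, from 64.7 to 26.3 CPM and from 28.0 to 7.28 CPM on average, while the Chrnb2 groups overlapped in both.

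Among the muscarinic receptors, Chrm1, the main Gq-coupled receptor of cortical excitatory neurons, differed by a similar amount in both experiments. Chrm1 lies on chromosome 19 at 8663789 to 8683587 (plus strand, coordinates of GENCODE M21 on mm10 here and below). In the progenitor experiment its controls were at 137, 123, 119 and 127 CPM and the libraries labelled mutant at 79.1, 88.3, 90.9 and 88.8 CPM. All 4 labelled mutant were below all controls, with a log2 fold change of −0.54 ± 0.06 (SE). Postmitotic controls were at 86.4, 87.4 and 89.6 CPM and the libraries labelled mutant at 60.1, 57.1 and 70.5 CPM. The groups were again apart, at −0.49 ± 0.08.

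Chrm4, which couples to Gi/o, was also lower in both. It lies on chromosome 2 at 91927249 to 91928688 (plus strand). Progenitor controls had 33.4, 25.4, 24.6 and 23.3 CPM and the libraries labelled mutant 16.4, 13.6, 17.2 and 17.1 CPM, a log2 fold change of −0.73 ± 0.12. The groups did not overlap, and control 1 was the highest library. Postmitotic controls had 10.1, 11.5 and 9.95 CPM and the libraries labelled mutant 6.52, 4.17 and 7.23 CPM, a log2 fold change of −0.82 ± 0.18. These groups were apart too, but the postmitotic difference was no longer past the threshold on removal of each of controls 1, 2 and 3 and mutants 1 and 2, with log2 fold changes of −0.61 (without mutant 2) to −0.89 (without mutant 1). It was also not past the threshold with all 6 libraries when the fit was not robust or had the Y-linked level as a term, and so under 7 of 15 alternatives in all.

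Chrm3, the other Gq-coupled receptor of the set, passed the threshold in the progenitor experiment and not in the postmitotic one. It lies on chromosome 13 at 9875486 to 10360847 (minus strand). Progenitor controls had 19.1, 19.0, 16.2 and 20.4 CPM and the libraries labelled mutant 12.2, 12.2, 12.4 and 10.3 CPM. The groups were apart, at −0.67 ± 0.09 on the log2 scale. Postmitotic controls had 11.4, 11.9 and 11.3 CPM and the libraries labelled mutant 11.3, 16.5 and 12.9 CPM. There the groups overlapped, at 0.24 ± 0.14, with mutant 2 the highest.

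Chrm2, a Gi/o-coupled receptor on chromosome 6 at 36388084 to 36528414 (plus strand), was low throughout. Its progenitor values were 2.04 to 4.31 CPM in controls and 2.70 to 3.07 CPM in libraries labelled mutant, which lay wholly inside the range of the controls. Its postmitotic values were 6.52 to 8.92 CPM and 5.27 to 7.36 CPM. The groups overlapped in both, with log2 fold changes of −0.13 ± 0.24 and −0.29 ± 0.16. Chrm5, the remaining muscarinic receptor and no member of the set, had 5 to 23 counts per progenitor library and a log2 fold change of −0.49 ± 0.46 (edgeR adjusted p = 0.479), and with 4 to 9 counts it was not tested in the postmitotic experiment.

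Among the nicotinic subunits, Chrna4 and Chrna5 were lower in the progenitor experiment and their usual partner Chrnb2 differed little. Chrna4 (alpha4) lies on chromosome 2 at 181018380 to 181043546 (minus strand). Progenitor controls had 57.9, 65.5, 50.5 and 58.8 CPM and the libraries labelled mutant 35.4, 41.6, 40.0 and 49.1 CPM. The groups were apart at −0.49 ± 0.10, although mutant 4 was close to control 3. In the postmitotic experiment the order was opposite: the libraries labelled mutant, at 38.0, 37.8 and 37.4 CPM, were all above the controls, at 33.7, 36.4 and 33.9 CPM. That difference was 0.12 ± 0.08 and did not pass the threshold.

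Chrna5 (alpha5), on chromosome 9 at 54980880 to 55007779 (plus strand), was detected at few CPM. Progenitor controls had 2.85, 4.69, 3.36 and 4.13 CPM and the libraries labelled mutant 1.87, 2.80, 1.78 and 2.72 CPM, a log2 fold change of −0.71 ± 0.21. Mutant 2 was just under control 1, and the difference did not pass the threshold without control 2 (−0.59), control 4 (−0.66), mutant 1 (−0.62) or mutant 3 (−0.61). Postmitotic values were 1.59 to 2.37 CPM in controls and 1.73 to 2.21 CPM in libraries labelled mutant, which overlapped (−0.07 ± 0.22).

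Chrnb2 (beta2) lies on chromosome 3 at 89746195 to 89764632 (minus strand). Its progenitor values were 76.2 to 80.8 CPM in controls and 72.9 to 80.9 CPM in libraries labelled mutant, and its postmitotic values were 75.8 to 84.2 CPM and 77.9 to 84.2 CPM. The groups overlapped in both, at −0.06 ± 0.05 and 0.02 ± 0.07. Chrna7 (alpha7), on chromosome 7 at 63098692 to 63212569 (minus strand), had overlapping progenitor groups of 8.02 to 14.8 CPM and 10.1 to 13.6 CPM, at 0.00 ± 0.17. Its postmitotic controls, at 9.25, 11.3 and 8.84 CPM, were all above the libraries labelled mutant, at 7.56, 7.28 and 6.77 CPM. That difference, −0.45 ± 0.14, did not pass the threshold.

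Lypd1 and Lynx1 had the largest log2 fold changes of the set in the progenitor experiment; in the postmitotic one Lypd1 had the largest, and Lynx1 (−0.60) was behind Chrm4 (−0.82). Lypd1 lies on chromosome 1 at 125867622 to 125913101 (minus strand), and its promoter windows are printed above. Progenitor controls had 71.3, 60.6, 59.8 and 67.1 CPM and the libraries labelled mutant 21.0, 23.2, 21.9 and 38.9 CPM. Mutant 4 was the highest of its group and still below every control, and the log2 fold change was −1.30 ± 0.19, or 2.46-fold lower. Postmitotic controls had 27.0, 26.6 and 30.2 CPM and the libraries labelled mutant 5.67, 8.89 and 7.27 CPM. The lowest control was well above the highest library labelled mutant, at −1.94 ± 0.14, or 3.84-fold lower.

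Lynx1 lies on chromosome 15 at 74747852 to 74753046 (minus strand). Progenitor controls had 103, 100, 78.7 and 85.5 CPM and the libraries labelled mutant 28.8, 37.5, 48.1 and 47.4 CPM. The groups were far apart, at −1.18 ± 0.17, or 2.27-fold lower. Postmitotic controls had 17.0, 25.9 and 23.5 CPM and the libraries labelled mutant 16.6, 13.2 and 14 CPM. These groups were apart only narrowly, since control 1 and mutant 1 nearly met. The difference of −0.60 ± 0.15 did not pass the threshold with all 6 libraries and passed without control 1 (−0.76).

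**Figure D2:**
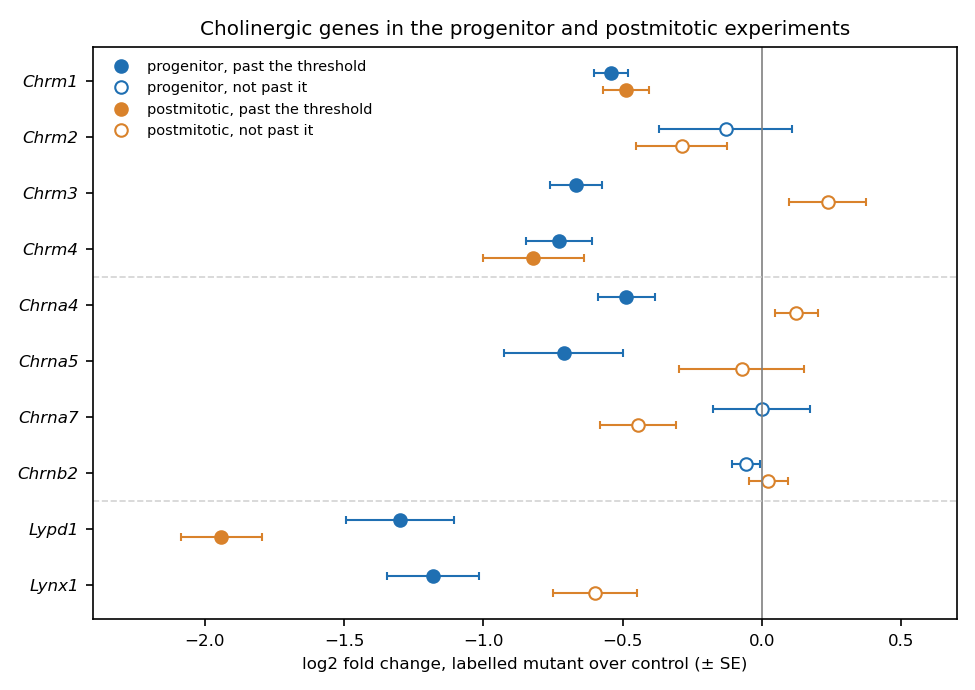
Log2 fold change of libraries labelled mutant over controls, with its SE, for each of the 10 genes in the progenitor (blue) and postmitotic (orange) experiments; filled points passed an adjusted p under 0.05, open points did not. Chrm1 and Chrm4 lay close together in both, Lypd1 was lowest at −1.30 and −1.94, and Chrm3 and Chrna4 lay on opposite sides of 0.

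Adding the Y-linked level to the model left 5 of the 7 progenitor genes past the threshold: Chrm1 (−0.67), Chrm3 (−0.61), Chrna4 (−0.73), Lypd1 (−1.66) and Lynx1 (−1.65 on the log2 scale). Over all 15295 genes, that model called 430 lower, against 1739 without the term. Chrm4 (−0.69) and Chrna5 (−1.05) kept the direction and did not pass. With that term, the progenitor contrast compares mutant 1 with the controls at a like Y-linked level. The same term in the postmitotic fit left Chrm1 (−0.46) and Lypd1 (−1.97) past the threshold and not Chrm4 (−0.74).

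The 2 experiments were set side by side through the difference of their log2 fold changes, postmitotic minus progenitor, in 1 fit of all 14 libraries. It was 0.05 ± 0.10 (SE) for Chrm1 and −0.09 ± 0.22 for Chrm4, the receptors lower in both. It was 0.90 ± 0.17 for Chrm3, 0.61 ± 0.13 for Chrna4 and 0.64 ± 0.32 for Chrna5, each lower in the progenitor experiment. It was 0.58 ± 0.26 for Lynx1 and −0.64 ± 0.28 for Lypd1, opposite in sign and not tested. Both Ly6 genes had lower means in both experiments. The values were −0.44 ± 0.24 for Chrna7, −0.16 ± 0.31 for Chrm2 and 0.08 ± 0.08 for Chrnb2. Of 15643 genes in this fit, 6.94% passed an adjusted p under 0.05. The 10 genes were chosen with both contrasts known, so their differences have no p. The controls of the experiments differed too. Lynx1 was at 91.8 CPM in progenitor and 22.2 CPM in postmitotic controls, Chrm2 at 3.10 and 7.73, and Chrnb2 at 78.8 and 79.2. Summed astrocyte markers were at 1209 and 560 CPM on average. A difference between the experiments cannot be told apart from one between the sets of libraries, here and below.

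In the authors' deposited table of DESeq2 results, Lypd1 had log2 fold changes of −1.31 (progenitor) and −1.88 (postmitotic). Lynx1 had −1.19 and −0.52 in the authors' deposited table. The authors' deposited table gave Chrm4 as −0.74 and −1.01, the latter larger than the −0.82 from all 6 libraries here. Leaving out control 3 and mutant 3, postmitotic Chrm4 here was −1.02. The cause of the difference from the authors' value was not tested.

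Levels of different genes were compared per kilobase of exon, in controls. In progenitor controls the order was Lynx1 (19.7 ± 2.49 CPM per kilobase, SD, n = 4), Chrm1 (19.5 ± 1.23), Chrm4 (18.5 ± 3.17), Chrna4 (11.6 ± 1.22), Chrnb2 (9.40 ± 0.275), Lypd1 (9.19 ± 0.780), Chrm3 (2.99 ± 0.284), Chrna7 (2.55 ± 0.635), Chrna5 (1.20 ± 0.261) and Chrm2 (0.512 ± 0.191). The ranges of Lynx1, Chrm1 and Chrm4 overlapped from neighbour to neighbour, as did those of Chrnb2 and Lypd1 and of Chrm3 and Chrna7; the other neighbours were apart. In postmitotic controls (n = 3) the order was Chrm1 (13.5 ± 0.254), Chrnb2 (9.45 ± 0.524), Chrm4 (7.31 ± 0.601), Chrna4 (6.90 ± 0.294), Lynx1 (4.75 ± 0.994), Lypd1 (3.97 ± 0.278), Chrna7 (2.18 ± 0.297), Chrm3 (1.84 ± 0.0495), Chrm2 (1.28 ± 0.198) and Chrna5 (0.664 ± 0.136 CPM per kilobase). There Chrm4 overlapped Chrna4 and Lynx1 overlapped Lypd1. Lynx1 thus stood first among progenitor controls and at rank 5 among postmitotic ones, in tables that were made separately and were not compared by a test. The length of Chrm4 is the least certain: its GENCODE M21 model is a single exon of 1440 bases, while RefSeq's gene spans 91922189 to 91929835, and the sources used here do not name the annotation behind the counts.

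**Figure D3:**
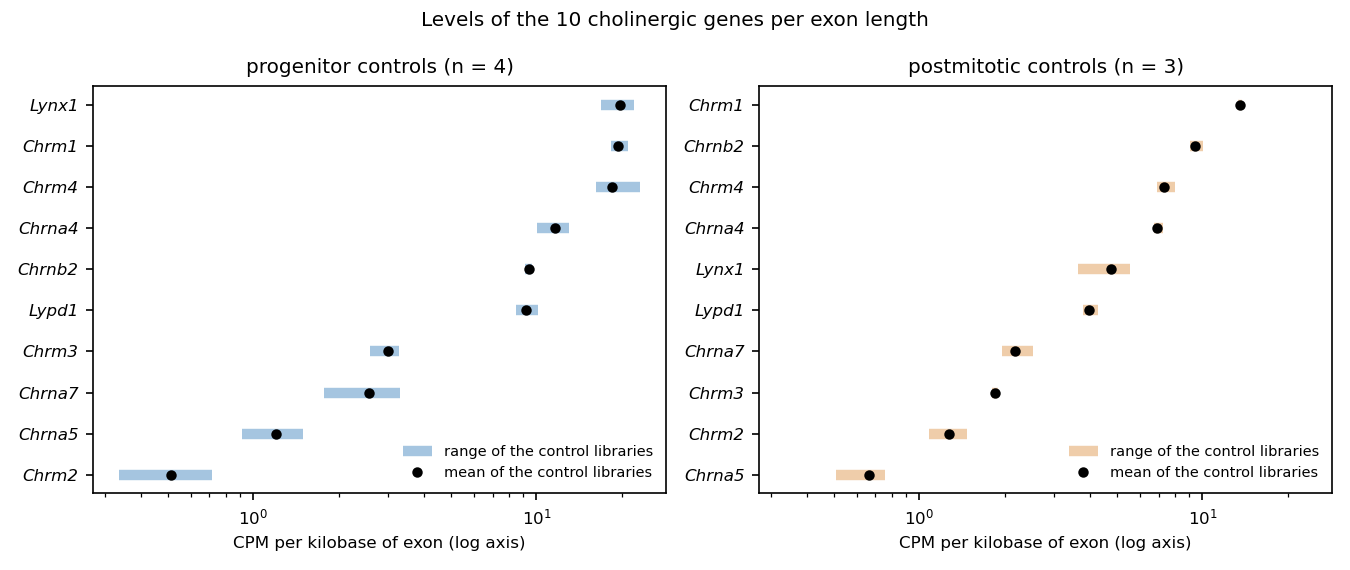
Level of each of the 10 genes in control libraries, in CPM per kilobase of exon on a log axis; points are means and bars span the lowest to the highest library (4 progenitor, 3 postmitotic). Lynx1, Chrm1 and Chrm4 lead the progenitor controls at 18.5 to 19.7, and Chrm1 leads the postmitotic controls at 13.5.

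Exons of 4 of the genes share bases with a gene on the opposite strand in GENCODE M21: Lypd1 with Gpr39 (1202 bases), Chrnb2 with Adar (1365 bases), Chrm1 with Gm22820 (329 bases) and Chrm2 with 9330158H04Rik (142 bases). The library kit keeps strand, but whether the counting used strand is a point the sources used here do not give. Gpr39 had 0 to 2 counts per progenitor and 0 to 4 counts per postmitotic library, against 141 to 1952 for Lypd1. Adar, the RNA-editing enzyme gene next to Chrnb2, had log2 fold changes of −0.03 ± 0.05 and −0.03 ± 0.08 (edgeR adjusted p = 0.739 and 0.939).

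A list of 43 other genes of cholinergic signalling, drawn up by role with earlier results of these data known and with the 10 genes left out, was tested in the same fits. In the progenitor experiment 30 were measured, and 6 of the 30 fell and 0 rose (edgeR, adjusted p under 0.05), with a median log2 fold change of −0.10. In the postmitotic experiment 28 were measured, and 0 fell and 1 rose, with a median of −0.02. The background was the 11.4% and 12% of progenitor genes and the 1.06% and 0.895% of postmitotic genes given above. At an unadjusted p under 0.05 in edgeR, 1 of the 30 was higher in the progenitor experiment and 5 of the 28 were lower in the postmitotic one. DESeq2 called 1 and 2, and limma-voom 0 and 0. Over all genes tested, DESeq2 called 2048 lower and 1952 higher of 15295 progenitor genes, and 269 and 250 of 17775 postmitotic ones. Limma-voom called 1723 and 1857, and 183 and 145. The share of all genes at an unadjusted p under 0.05 is not given, so such counts have no background here or below.

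Of the other nicotinic subunits, 1 of 4 measured in each experiment fell in the progenitor one and 0 of 4 passed in the postmitotic one (1 at an unadjusted edgeR p under 0.05, 0 by DESeq2 and by limma-voom); the other 8 subunits, among them Chrnb4, had too few counts. The one was Chrna3, the alpha3 subunit typical of autonomic ganglia. Its progenitor controls had 4.23, 3.81, 4.42 and 3.85 CPM and the libraries labelled mutant 0.261, 0.604, 0.664 and 1.86 CPM. All 4 were below all controls, at 6, 14, 16 and 43 counts against 104, 100, 117 and 112. Chrna3 fell by 2.26 ± 0.41 on the log2 scale (edgeR adjusted p = 0.00433). With 1 library left out, the log2 fold change of Chrna3 ranged from −2.98 (without mutant 4) to −1.96. Its postmitotic groups, 2.87 to 3.32 and 2.17 to 2.40 CPM, were apart at −0.40 ± 0.18 (edgeR adjusted p = 0.422). The difference between the experiments was 1.87 ± 0.48 (adjusted p = 0.0288, edgeR interaction).

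Of the other Ly6 genes, 2 of 5 measured fell in the progenitor experiment and 1 of 5 rose in the postmitotic one. Lypd6b, which encodes a Ly6 protein that modulates nicotinic receptors, had 26.3, 23.0, 18.8 and 33.4 CPM in progenitor controls and 12.3, 15.1, 11.0 and 16.8 CPM in the libraries labelled mutant. The groups were apart, and Lypd6b fell by 0.88 ± 0.19 on the log2 scale (edgeR adjusted p = 0.0112). Its postmitotic controls had 17.3, 17.1 and 12.7 CPM and the libraries labelled mutant 31.2, 28.4 and 15.9 CPM. That was a log2 fold change of 0.68 ± 0.27 (edgeR adjusted p = 0.418), and 0.92 without mutant 3 (edgeR adjusted p = 0.00197). With 1 library left out it ranged from 0.49 to 0.92, and Lypd6b passed under 4 of 15 alternatives. Between the experiments Lypd6b differed by 1.56 ± 0.35 (edgeR interaction, adjusted p = 0.0213).

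Lypd6, whose product also binds nicotinic receptors, rose in the postmitotic experiment, from 22.7, 25.1 and 24.4 CPM to 40.2, 35.5 and 33.8 CPM. All 3 were above all controls, at 0.60 ± 0.09 (edgeR adjusted p = 0.0033). Its progenitor groups, 22.1 to 32.7 and 22.5 to 31.4 CPM, overlapped at 0.02 ± 0.14 (edgeR adjusted p = 0.953), and the difference between the experiments did not pass (0.59 ± 0.19, edgeR adjusted p = 0.0688). Lypd1 and Lypd6 were thus in opposite directions in the postmitotic libraries, while Lypd1, Lynx1 and Lypd6b were all lower in the progenitor ones. Ly6e fell by 0.21 ± 0.05 in the progenitor experiment (edgeR adjusted p = 0.00961), and Ly6h, at 287 ± 16.1 CPM in progenitor controls, had −0.12 ± 0.06 (edgeR adjusted p = 0.137).

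Of 13 genes of muscarinic signal transduction measured, 3 fell in the progenitor experiment and 0 passed in the postmitotic one by edgeR, where 4 were lower at an unadjusted p under 0.05, DESeq2 called 2 lower and limma-voom 0. Kcnj3, which encodes a subunit of the potassium channel that Gi/o-coupled receptors open, had 82.0, 86.6, 70.8 and 76.9 CPM in progenitor controls and 53.3, 57.0, 57.9 and 62.1 CPM in the libraries labelled mutant. The groups were apart, at −0.46 ± 0.07 (edgeR adjusted p = 0.0012). Postmitotic Kcnj3 was at −0.39 ± 0.09 with groups apart (edgeR adjusted p = 0.0578), and at −0.49 without mutant 3 (edgeR adjusted p = 0.00797). With 1 library left out it ranged from −0.49 to −0.30, and Kcnj3 passed there under 5 of 15 alternatives. The G protein subunit genes Gnai1 and Gnao1 fell by 0.28 ± 0.06 (edgeR adjusted p = 0.0085) and 0.17 ± 0.05 (edgeR adjusted p = 0.0251) in the progenitor experiment. Gnai1 differed between the experiments by 0.33 ± 0.09 (edgeR interaction, adjusted p = 0.0326). The Gnao1 call was lost without control 2 (−0.16), control 4 (−0.15), mutant 1 (−0.15), mutant 3 (−0.17) or mutant 4 (−0.17). Rgs4, a regulator that shortens G protein signalling, was at −0.56 ± 0.27 in the progenitor (edgeR adjusted p = 0.175) and −0.44 ± 0.11 in the postmitotic experiment (edgeR adjusted p = 0.0532), and passed in neither. With the Y-linked level in the model, Chrna3 and Kcnj3 of the 6 progenitor genes remained past the threshold.

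Genes that make, load or break down acetylcholine did not pass in either experiment: 0 of 4 measured of 7 passed by edgeR, also at an unadjusted p under 0.05, and 0 by DESeq2 and by limma-voom. Ache, which encodes acetylcholinesterase, was at 89.0 ± 7.99 CPM against 83.5 ± 3.24 CPM (n = 4 each) in the progenitor experiment and at 67.7 ± 3.46 CPM against 64.7 ± 3.56 CPM (n = 3 each) in the postmitotic one. Chat, which encodes the enzyme that makes acetylcholine, had 2 to 9 counts per progenitor and 0 to 2 counts per postmitotic library. Of the receptor chaperones, Ric3 and Tmem35a (NACHO) had log2 fold changes of −0.11 ± 0.07 and −0.09 ± 0.05 in the progenitor experiment (edgeR adjusted p = 0.286 and 0.257) and 0.15 ± 0.09 and 0.05 ± 0.07 in the postmitotic one (edgeR adjusted p = 0.584 and 0.834).

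**Figure D4:**
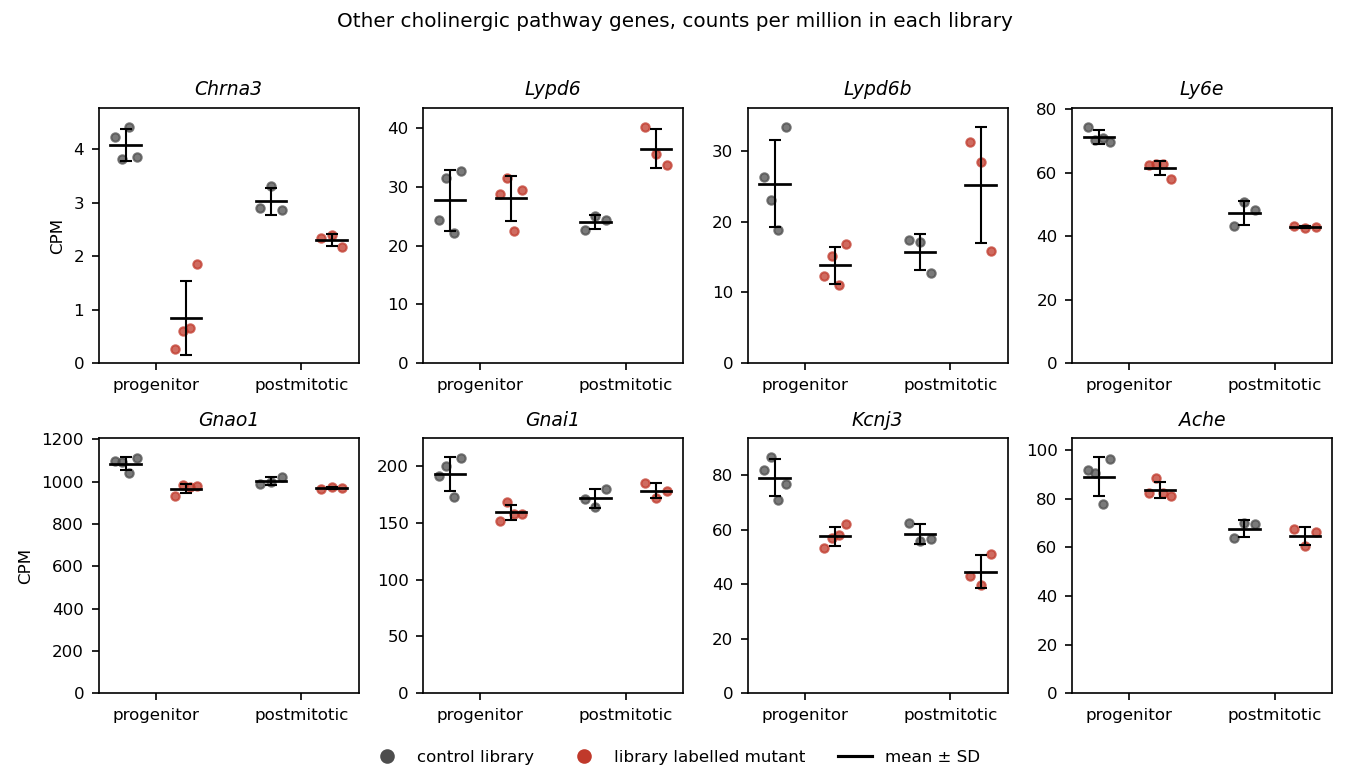
CPM per library (points) with group mean and SD (bars) for the 7 genes outside the set that passed the threshold in either experiment, and for Ache, which did not. Chrna3 fell from 4.08 to 0.847 CPM on average in the progenitor experiment, and Lypd6 rose from 24.1 to 36.5 CPM in the postmitotic one.

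Markers of other cells moved in the same libraries. For 8 markers of subplate and layer VI neurons, the summed level was 131 to 220 CPM in progenitor controls and 68.3 to 130 CPM in the libraries labelled mutant, and 3 of 8 fell (Nr4a2, Cplx3 and Moxd1). The postmitotic sum was 92.8 to 113 CPM in controls and 111 to 176 CPM in the libraries labelled mutant, and 2 of 8 rose (Tle4 and Foxp2), while Nr4a2 was at −1.61 ± 0.40 and did not pass (edgeR adjusted p = 0.199). Astrocyte markers in the progenitor experiment summed to 1067 to 1429 and 944 to 1166 CPM, and 3 of 7 fell. Microglial markers summed to 105 to 161 and 86.8 to 122 CPM, and 2 of 8 fell. Endothelial and mural markers summed to 269 to 389 and 343 to 453 CPM, and 2 of 7 rose. Interneuron markers summed to 299.8 to 387 and 296.8 to 336 CPM, and 2 of 10 fell. Oligodendrocyte lineage markers summed to 472 to 552 and 517 to 601 CPM, and 2 of 7 rose. Of these 5 cell classes 0 markers passed in the postmitotic experiment by edgeR; at an unadjusted p under 0.05, 5 astrocyte markers were lower and 1 interneuron marker was higher, and DESeq2 called 1 astrocyte marker lower. Excitatory neuron markers summed to 1026 to 1241 CPM in progenitor controls and 1051 to 1173 CPM in the libraries labelled mutant. They summed to 1123 to 1199 and 1232 to 1271 CPM in the postmitotic groups. In each experiment 1 of 5 fell and 2 rose. The postmitotic fall was in Neurod6, also known as Nex (−0.61 ± 0.11, edgeR adjusted p = 0.0135). Only the postmitotic libraries labelled mutant carry Cre at that locus. An effect of that allele on Neurod6 cannot be told apart from one of Lhx2 loss. Upper-layer markers, the class of the dissected layers, summed to 1028 to 1261 and 1132 to 1495 CPM in the progenitor groups, and 2 of 6 rose (Mdga1 and Rasgrf2). They summed to 1300.0 to 1347 and 1202 to 1367 CPM in the postmitotic groups, where 2 of 6 fell (Cux1 and Rorb) and 1 rose (Lhx2 itself). The shares of all genes that passed, against which these counts stand, are the 11.4% and 12% (progenitor, lower and higher) and 1.06% and 0.895% (postmitotic) given above. The part of these cells in the differences of the 10 genes was not tested. Markers of basal forebrain cholinergic neurons summed to 4.81 to 8.34 CPM over all progenitor libraries and 4.16 to 7.44 CPM over all postmitotic ones, with Gbx1 at 0 in some libraries of both and 0 of 3 measured past the threshold by edgeR, DESeq2 or limma-voom in either experiment; at an unadjusted p under 0.05, 0 differed in the progenitor and 1 was higher in the postmitotic experiment.

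The genes most like Lypd1 over the libraries of each experiment were listed by the correlation of log2(CPM + 0.5), as a description that the 2-group difference itself carries. Over the 8 progenitor libraries they were Dusp7 (Pearson r = 0.994), Mgll (0.986) and Cryab (0.986). Over the 6 postmitotic libraries they were Casp1 (0.993), Lrrtm3 (0.993) and Ndst3 (0.991). The lists share no gene.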

How the data were processed

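Polyadenylated RNA of layer II/III tissue was sequenced in 14 libraries of 4 groups, taken from the labels. The authors deposited whole-number counts per gene symbol for each experiment, not normalised; HISAT2, featureCounts, DESeq2 and build mm10 are named in the submitters' processing notes, with versions, annotation and strand setting not given in the sources used here. In addition, the authors deposited DESeq2 tables with log2 fold changes and adjusted p-values, per the file headers; there the letters "na" had become 0 inside symbols, and 3 of the symbols used were restored. The tables held 0 columns of other samples. Of the symbols, 96.6% in each table matched GENCODE M21.

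Each experiment was fitted alone in edgeR 4.0.16 (R 4.3.3): filterByExpr, TMM, robust glmQLFit, glmQLFTest, Benjamini-Hochberg over all genes tested, threshold 0.05. CPM use TMM-scaled totals; SE is the log2 fold change over the square root of F. The difference between experiments was the interaction in 1 fit of shared symbols. Scripts were tested on simulated data. A chi-square test of counts between replicates gave 6.73 to 20.7 per degree of freedom, so each library was kept as its own replicate. Alternatives were DESeq2 1.42.0, limma-voom (limma 3.58.1), other scaling, filtering, covariates and library subsets.

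The 10 genes and the lists were chosen with earlier results of these data known. Named genes are all 10, each listed pathway gene past the threshold in either experiment, partner enzymes and chaperones, Lhx2, genes overlapping a member's exons, and the 3 genes most correlated with the member of largest fold change; Chrm5, Ly6h, Rgs4 and the marker genes named were added after their values were seen.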

Additional observations from a re-analysis of the deposited data

Results flagged for a closer look

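In 34 groups of 4 progenitor libraries examined, 4 had a library whose gap to the nearest other exceeded Dixon's critical share of the group's range; chance alone gives about 1 in 20 groups. In Chrm3, progenitor mutant 4 was low, with a gap of 0.911 of the range, and the log2 fold change was −0.60 without it. In Lypd1, mutant 4 was high (0.876), and the log2 fold change was −1.55 without it. In Ly6e, mutant 4 was low (0.905; −0.19 without it). In Gnao1, mutant 1 was low (0.832), and without it the log2 fold change was −0.15 (edgeR adjusted p = 0.0935).

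The log2 fold changes of 3 pathway genes outside the 10 differed between the experiments, postmitotic minus progenitor, by edgeR's interaction test, out of 30 pathway genes tested, where 6.94% of all 15643 genes passed: Chrna3 by 1.87 (adjusted p = 0.0288), Lypd6b by 1.56 (adjusted p = 0.0213) and Gnai1 by 0.33 (adjusted p = 0.0326). Every progenitor library labelled mutant was below the mean of its controls for Chrna4, and every postmitotic one was above it, a difference of 0.61 that was not tested. Such differences cannot be told apart from differences between the sets of libraries.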

How the results depend on the processing

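No listed alternative reversed a difference past the threshold. Of the 10 genes, 7 passed as lower in the progenitor experiment with all libraries and 6 to 7 with 1 library left out; 3 passed in the postmitotic one, and 2 to 3 with 1 left out. These counts describe genes chosen on the same contrasts. Lynx1 passed in the postmitotic experiment under 3 of 15, namely DESeq2, no low-count filter and without control 1. Of the pathway genes that fell in the progenitor experiment, 2 rather than 6 passed with the Y-linked covariate, under which calls over all genes dropped to 430 lower and 518 higher; DESeq2 called 1 higher rather than 0. Of the pathway genes in the postmitotic experiment, 0 fell, against 1 in the fit of all libraries, 1 with the Y-linked covariate, 1 with libraries 1 and 2 of each group, 2 with DESeq2, 2 with no low-count filter and 0 to 1 with 1 library left out. Those that rose were 1, against 2 with libraries 1 and 2, 2 with no filter and 1 to 2 with 1 left out (2 without mutant 3). With the replicate number as a block, 2 pathway genes rose in the postmitotic experiment, and Gnao1 no longer passed in the progenitor one. Same-numbered libraries did not deviate together (r of −0.445 to 0.0762 and −0.191 to 0.0366). With so few libraries per group, these values cannot show whether the numbers pair them. Over all postmitotic genes, no low-count filter gave 361 lower and 362 higher calls against 189 and 159, leaving out control 2 gave 91 and 69, and leaving out control 3 gave 106 and 91. DESeq2 called 250 higher. Without progenitor mutant 1, calls were 1108 and 1281 against 1739 and 1838, and without mutant 3 they were 1138 and 1245. Taking the longest transcript as length moved 2 postmitotic genes (Chrm4 and Chrna4) in the order of levels. The cause of these changes was not tested. The genes of the set with the fewest counts were Chrm2, with 50 to 226 per library, and Chrna5, with 40 to 123.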
